A study of Homo sapiens with 6 samples.

Results

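The data describe 10 genes of the glutathione transferase family in HCT116 cells, measured as newly made RNA. The genes are GSTO1 and GSTO2 of the omega class, GSTP1, GSTZ1, GSTA4 and GSTM3 of the other cytosolic classes, GSTK1 of the kappa class, and the membrane-bound MGST1, MGST2 and MGST3. They were chosen by symbol, and are 10 of the 22984 genes with a sense-strand value in every file. GSTO1 was the target of the siRNA and of the compound C1-27, so the comparisons ask whether transcription of GSTO1 fell and whether its relatives responded.

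HCT116 is an established human colorectal carcinoma cell line. Cells were labelled with bromouridine for 30 min, and the labelled RNA was captured and sequenced (Bru-seq), which reads transcription over exons and introns. There were 6 libraries, each from 1 culture. Both DMSO cultures received 0.01% DMSO for 4 h, 1 culture received GSTO1 siRNA at 10 nM for 24 h (siGSTO1), 2 cultures received the GSTO1 inhibitor C1-27 at 1 μM for 4 h or 24 h, and 1 culture received C1-14, described in the study as an inactive analogue, at 10 μM for 4 h. A control siRNA and a 24 h DMSO treatment were not analysed here, so transfection, time and loss of GSTO1 cannot be told apart in siGSTO1, nor time and compound in C1-27 at 24 h. Sense counts ranged from 18112861 to 36841146 per library. All 5 epithelial markers examined were read in every library, with a summed RPKM (reads scaled to gene length and to the mapped reads of the library) of 14.1 to 32.5. The summed RPKM was 0.0636 to 0.313 for 4 fibroblast markers, 0.382 to 0.570 for 3 blood cell markers and 0.174 to 0.377 for 3 endothelial markers. Nearly all of each sum came from 1 gene, COL1A1 at 0.0609 to 0.313, CD68 at 0.382 to 0.569 and PECAM1 at 0.168 to 0.374 RPKM. For scale, the epithelial marker CDH1 was at 0.321 to 0.617 RPKM. The T cell marker CD3E had 0 counts in all 6 libraries.

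Glutathione transferases join the tripeptide glutathione to reactive or foreign molecules, or use it to reduce or isomerise them. The omega enzymes work mainly on thiols, for example by taking glutathione off modified proteins. The microsomal members belong to a separate family of membrane proteins, MAPEG, which also makes leukotrienes and prostaglandins. An siRNA directs cutting of the finished mRNA, whereas Bru-seq reads the RNA as it is made.

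GSTO1 and GSTO2 lie side by side on the plus strand of chromosome 10. In the files, whose build is hg19 per the submitters' processing notes, GSTO1 spans chr10:106013952-106027222 and GSTO2 spans chr10:106028631-106059176, with 1408 bp between them. The 250 bases before the RefSeq start sites of these neighbours and of GSTP1 are shown because the siRNA target, its neighbour and GSTP1, a gene known to be induced through an antioxidant response element, can then be read side by side. They are on the plus strand in build GRCh38.p14, whose positions are not those of the files. The RefSeq start sites need not match the gene starts in the files, and for GSTO2 the first of 2 start sites is shown. Capitals mark matches to TGACNNNGC, the core of the antioxidant response element, searched on both strands.
GSTO1, chr10:104254642-104254891: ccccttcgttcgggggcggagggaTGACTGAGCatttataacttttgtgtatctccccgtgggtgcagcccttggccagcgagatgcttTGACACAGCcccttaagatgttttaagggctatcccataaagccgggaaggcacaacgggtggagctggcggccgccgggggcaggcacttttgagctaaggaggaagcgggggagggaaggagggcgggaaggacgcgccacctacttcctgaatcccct
GSTO2, chr10:104268934-104269183: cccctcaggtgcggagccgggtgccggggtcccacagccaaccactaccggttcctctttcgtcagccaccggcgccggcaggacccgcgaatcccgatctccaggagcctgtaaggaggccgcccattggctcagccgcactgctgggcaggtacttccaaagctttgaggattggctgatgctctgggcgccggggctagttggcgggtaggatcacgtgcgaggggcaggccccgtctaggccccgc
GSTP1, chr11:67583562-67583811: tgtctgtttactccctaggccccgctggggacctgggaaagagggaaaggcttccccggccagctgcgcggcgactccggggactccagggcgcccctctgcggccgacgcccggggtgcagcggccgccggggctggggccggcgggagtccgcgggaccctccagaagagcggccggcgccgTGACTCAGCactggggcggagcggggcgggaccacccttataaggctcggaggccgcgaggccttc
The GSTO1 window held 2 matches, 226 and 161 bases upstream of the start, and the GSTP1 window held 1, 66 bases upstream. The windows of both GSTO2 start sites held no match. GSTA4 had 1 match, and 3 of the 9 members with a window had any. Of all 35116 windows of this length in the RefSeq table, 10.9% held at least 1 match and 0.752% held 2 or more. A match describes the letters and is not a measured binding site.

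In DMSO, GSTO2 and GSTO1 were the most transcribed of the 10 genes per length. Mean RPKM was 3.86 ± 0.0638 for GSTO2 and 3.61 ± 0.148 for GSTO1 (SD, n = 2), above 95.5% and 95.1% of all genes. MGST1, a microsomal transferase and peroxidase, followed at 3.02 ± 0.10 RPKM (SD, n = 2). GSTP1, the pi-class enzyme that is abundant in many carcinomas, had 2.34 ± 0.767 RPKM (SD, n = 2), so its distance from MGST1 was smaller than its own SD. GSTK1, a mitochondrial and peroxisomal transferase, and MGST3 were at 0.922 ± 0.209 and 0.566 ± 0.0834 RPKM (SD, n = 2).

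The other members were transcribed at lower levels. GSTM3 of the mu class had 0.30 ± 0.00962 RPKM and GSTZ1, which isomerises maleylacetoacetate in tyrosine breakdown, had 0.240 ± 0.00569 RPKM (SD, n = 2). MGST2 was at 0.135 ± 0.0246 RPKM and GSTA4, an alpha-class enzyme that clears the lipid peroxidation product 4-hydroxynonenal, was lowest at 0.0251 ± 0.00428 RPKM (SD, n = 2). The DMSO values of neighbours in this order did not overlap, and with C1-27 at 24 h GSTO1 stood above GSTO2, at 4.21 against 3.57 RPKM. Across all 6 libraries GSTO2 varied least, by 1.11-fold from lowest to highest, and GSTA4 varied most, by 3.27-fold on 9 to 55 counts.

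**Figure D1:**
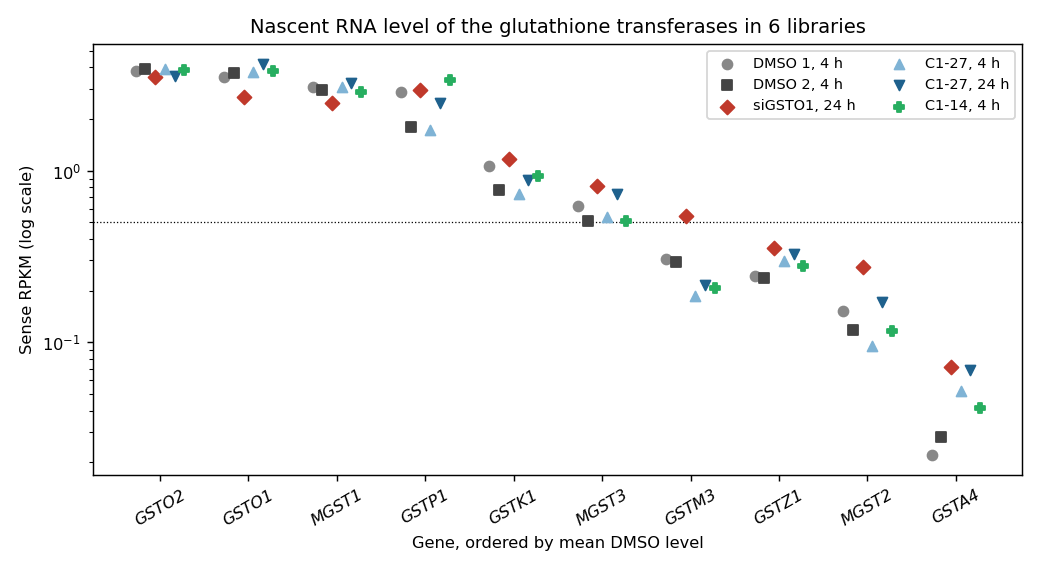
Sense RPKM on a log axis for the 10 genes, ordered by mean DMSO level, with 1 point per library and a dotted line at 0.5 RPKM. GSTO1, GSTO2 and MGST1 were lowest with siGSTO1, whereas GSTK1, MGST3, GSTM3, GSTZ1, MGST2 and GSTA4 were highest there.

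The siRNA culture had the lowest GSTO1 transcription of the 6. GSTO1 had 3.51 and 3.72 RPKM in the DMSO cultures, 2.70 with siGSTO1, 3.78 and 4.21 with C1-27 at 4 h and 24 h, and 3.82 with C1-14. These values rest on 941 to 2573 counts. The siGSTO1 value was 0.747 times the DMSO mean, 0.770 and 0.726 times the separate DMSO cultures, with a 95% interval of 0.689 to 0.798 that covers counting error only. In edgeR's quasi-likelihood test over 14431 genes the log2 fold change of GSTO1 was -0.53 (SE 0.27, 95% interval -1.06 to -0.01), with an unadjusted p of 0.0443 and an adjusted p of 0.33. The fall therefore did not pass the test after adjustment, and 8.88% of the tested genes had a lower log2 fold change. Scaling by TMM (edgeR's trimmed mean of M values) placed the median gene above 0.5 RPKM at -0.11 on the log2 scale in this comparison, so relative to such genes the value was near the RPKM log2 fold of -0.42.

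GSTO2, which also reduces dehydroascorbate, moved less than its neighbour. It had 3.81 and 3.90 RPKM in DMSO, 3.52 with siGSTO1, 3.89 and 3.57 with C1-27 at 4 h and 24 h, and 3.85 with C1-14. Its siGSTO1 level was 0.914 times the DMSO mean, with an edgeR log2 fold change of -0.24 (SE 0.25) and an adjusted p of 0.75.

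The ratio of the neighbours needs no library scaling. GSTO1 took 28.6% (95% Clopper-Pearson interval 27.1 to 30.0) and 29.3% (28.2 to 30.4) of the summed GSTO1 and GSTO2 counts in DMSO. With siGSTO1 it took 24.97% (23.6 to 26.4), below both DMSO intervals. C1-27 gave 29.7% (28.6 to 30.8) at 4 h and 33.9% (32.8 to 34.99) at 24 h, and C1-14 gave 30.1% (29.0 to 31.3). The intervals of siGSTO1 and of C1-27 at 24 h did not overlap those of DMSO, in opposite directions, but they cover counting error and each rests on 1 culture.

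GSTO1 carried many more reads on its opposite strand than GSTO2. Antisense counts over GSTO1 were 379 and 777 in DMSO, 526 with siGSTO1, 682 and 882 with C1-27 at 4 h and 24 h, and 564 with C1-14. They made up 25.8% and 27.9% of its reads in DMSO, 35.8% with siGSTO1 and 24.3% to 26.0% with the compounds. The antisense RPKM with siGSTO1 was 1.14 times the DMSO mean (95% counting interval 1.00 to 1.23). It lay above both DMSO cultures, at 1.24 and 1.05 times them, on the strand opposite to the one that was lower. C1-27 at 24 h also lay above both, at 1.18 and 1.01 times them. GSTO2 had 3 to 9 antisense counts per library, at most 0.298% of its reads, which shows how well the strands were separated there.

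**Figure D2:**
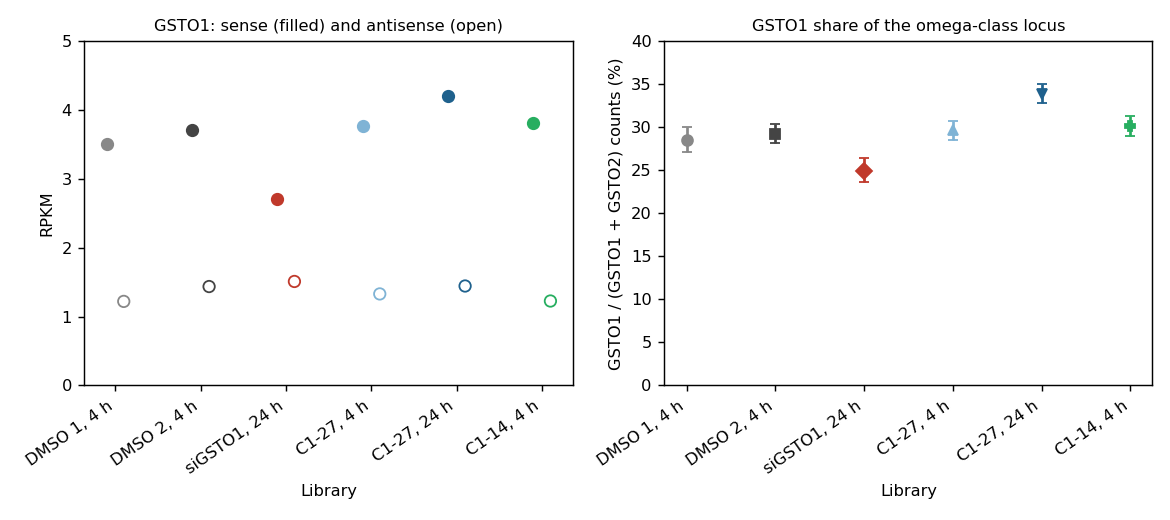
Left, GSTO1 sense (filled) and antisense (open) RPKM in each library; right, the percentage of summed GSTO1 and GSTO2 counts that came from GSTO1, with 95% Clopper-Pearson intervals. The siGSTO1 sense value of 2.70 RPKM and share of 24.97% were the lowest of the 6 libraries, while its antisense value was the highest.

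Genes beyond the pair were read in the same way. ITPRIP, 12722 bp to the right, was at 0.560 and 0.258 RPKM in DMSO and 0.801 with siGSTO1 (edgeR log2 fold change 0.88, adjusted p = 0.229). CCDC147, 54345 bp to the right, rose with siGSTO1 from 24 and 37 counts in DMSO to 105 counts (edgeR log2 fold change 1.94, SE 0.58, adjusted p = 0.0249). WDR96, 21831 bp to the left, had a log2 fold change of 0.11 (edgeR adjusted p = 0.951). MIR609, 35310 bp to the left, had at most 3 counts. With siGSTO1 GSTO1 and GSTO2 were below both DMSO cultures and these 3 tested genes were above both, and the difference between genes was not tested.

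None of the 10 genes passed an adjusted p of 0.05 with siGSTO1, where edgeR called 3% of all tested genes higher and 1.16% lower. DESeq2's Wald test also called none of the 10, with a lowest adjusted p of 0.43. At an unadjusted p under 0.05 edgeR had 1 member higher, MGST2, and 1 lower, GSTO1, against 9.09% and 5.19% of all genes. The median edgeR log2 fold change was 0.33 over the 10 members and 0.02 over all genes, with 7 members above 0 and 3 below. Without DMSO culture 2 GSTP1 went from 0.24 to -0.03. Of the 6 members that passed a level filter of 0.5 RPKM, 3 lay above and 3 below both DMSO cultures, where 35.2% of all genes past it lay above and 34.2% below. Their median RPKM log2 fold was 0.10, against 0.44 over all 10 members and -0.0007 over all genes past the filter.

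MGST2, which can also make leukotriene C4, had the lowest p of the family. It had 0.153 and 0.118 RPKM in DMSO, 0.273 with siGSTO1, 0.0948 and 0.172 with C1-27 at 4 h and 24 h, and 0.117 with C1-14. The siGSTO1 culture was 2.02 times the DMSO mean, and 1.79 and 2.32 times the separate cultures. In edgeR its log2 fold change was 0.91 (SE 0.37), with an unadjusted p of 0.0138 and an adjusted p of 0.172. MGST2 overlaps MAML3, a Notch coactivator gene on the opposite strand, and MAML3 rose with siGSTO1 from 313 and 295 counts to 1479 (edgeR log2 fold change 2.35, SE 0.32, adjusted p = 3.58e-10). The ratio to DMSO was 2.02, 0.700, 1.27 and 0.864 for MGST2 and 5.47, 0.617, 1.52 and 0.627 for MAML3, in the order siGSTO1, C1-27 at 4 h, C1-27 at 24 h and C1-14. Whether reads of MAML3 entered the MGST2 values was not tested. The antisense value listed for MGST2 covers 50624 bp of the gene's 74978 bp and held at most 6 counts.

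MGST3 is a glutathione peroxidase of the same family. Of the members whose mean of treated and DMSO RPKM passed 0.5, only MGST3 differed by 1.4-fold or more with siGSTO1. It had 0.624 and 0.507 RPKM in DMSO and 0.811 with siGSTO1, which was 1.43 times the mean but 1.30 and 1.60 times the separate DMSO cultures. That made 1 of the 6 members that passed this level filter, where 10.5% of all genes passing it were higher and 6.48% lower by that fold. In edgeR the log2 fold change was 0.41 (SE 0.34, adjusted p = 0.675). MGST1 went the other way, with 3.09 and 2.94 RPKM in DMSO and 2.47 with siGSTO1, and its log2 fold change of -0.40 (SE 0.26) had an edgeR adjusted p of 0.527.

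Of the low members, GSTA4 had 9 and 20 counts in DMSO and 33 with siGSTO1. The RPKM ratio was 2.87, with a counting interval of 1.64 to 4.75, and the edgeR log2 fold change was 1.38 (SE 0.71, adjusted p = 0.355). GSTM3 had 0.307 and 0.293 RPKM in DMSO and 0.541 with siGSTO1, and 0.186 to 0.217 with the compounds, so the siRNA culture lay above and the compound cultures below both controls. Its siGSTO1 log2 fold change was 0.74 (SE 0.54, edgeR adjusted p = 0.607). Most of the GSTM3 reads, 58.6% to 78.3%, lay on its opposite strand. GSTZ1 had 0.244 and 0.236 RPKM in DMSO and 0.356 with siGSTO1 (edgeR log2 fold change 0.46, adjusted p = 0.779).

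No member passed the test with either compound. With C1-27 at 4 h edgeR called none of them, against 0.0139% of all genes higher and 0% lower, and none had an unadjusted p under 0.05, against 0.277% higher and 0.443% lower. The highest and lowest log2 fold changes were 1.04 (SE 0.70) for GSTA4 and -0.67 (SE 0.58) for GSTM3. At 24 h none was called either, against 0.159% higher and 0.118% lower, and GSTA4 had an unadjusted p of 0.0452 on a log2 fold change of 1.36 (SE 0.68, edgeR adjusted p = 1.00), where 1.95% of all genes were higher and 1.78% lower at that level. With C1-14 none was called, against 0.111% higher and 0.00693% lower, and none had an unadjusted p under 0.05, against 1.12% and 0.298%. The edgeR 95% intervals of GSTO1 against DMSO ran from -0.42 to 0.59 for C1-27 at 4 h, -0.34 to 0.67 at 24 h and -0.41 to 0.60 for C1-14. Of the 6 members past the level filter, C1-27 at 4 h put 1 above and 2 below both DMSO cultures in RPKM (21.6% and 18.9% of all genes past it), C1-27 at 24 h put 3 above and 1 below (36.8% and 21.5%), and C1-14 put 2 above and 2 below (27.2% and 21.6%).

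C1-27 and C1-14 were given at different doses, so their values stand side by side only. At 4 h GSTO1 was 1.04 times the DMSO mean with C1-27 and 1.06 times with C1-14, and GSTO2 was 1.01 and 0.997 times. GSTP1 was 0.738 times with C1-27 and 1.45 times with C1-14, the only compound value past 1.4-fold among members above 0.5 RPKM, where 3.71% of all genes were higher and 1.01% lower by that fold with C1-14. The same shares were 0.457% and 2.22% for C1-27 at 4 h and 3.23% and 3.49% at 24 h. Of 897 genes of 300 to 5000 bp, 21.7% were higher and 4.35% lower by that fold with C1-14, and this length class holds GSTP1. Its DMSO values of 2.88 and 1.79 RPKM differed by a similar factor, and GSTP1 with C1-14 was 1.18 and 1.89 times the separate cultures (edgeR log2 fold change 0.57, SE 0.41, adjusted p = 1.00).

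**Figure D3:**
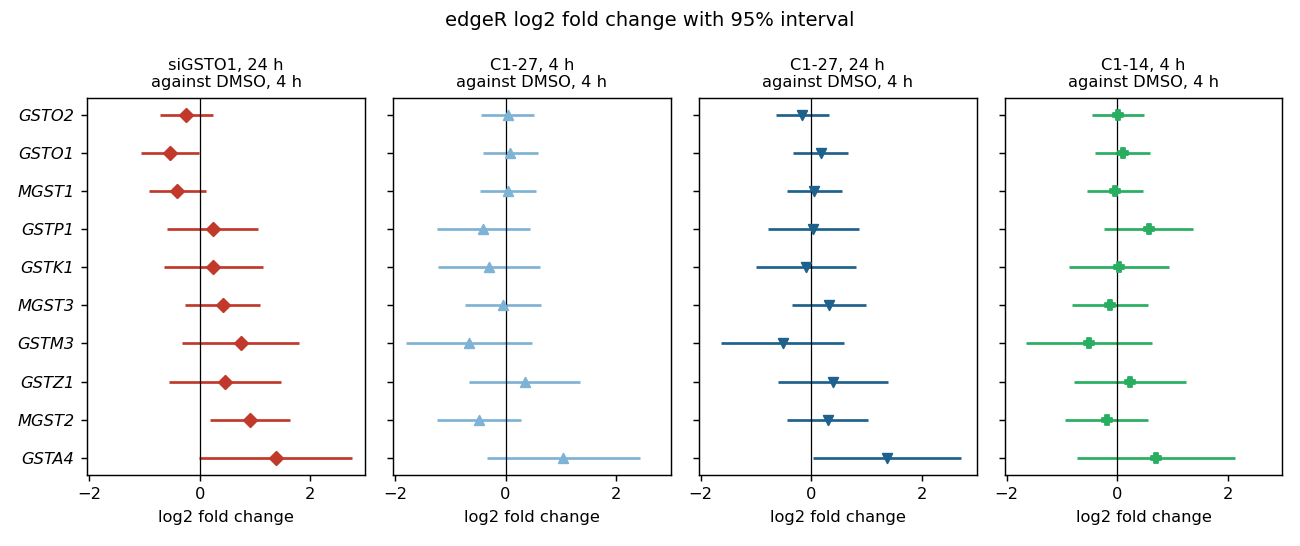
edgeR log2 fold change against DMSO with its 95% interval for the 10 genes in the 4 treatments, in order of DMSO level. With siGSTO1 the intervals of GSTO1 and MGST2 did not reach 0, before adjustment, and with the compounds GSTA4 at 24 h of C1-27 was the only such gene.

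The 24 h cultures were also compared with each other, with a spread that still came from the 4 h DMSO pair, pooled over genes. GSTO1 was lower with siGSTO1 than with C1-27, at 2.70 against 4.21 RPKM, with an edgeR log2 fold change of -0.70 (SE 0.30, unadjusted p = 0.0195, adjusted p = 0.506), where 0.755% of all genes were called higher and 0.236% lower, and 4.77% and 1.97% at an unadjusted p under 0.05. Between C1-27 at 24 h and 4 h none of the 10 was called, against 0.0416% higher and 0.0624% lower, or 1.43% and 1.03% at an unadjusted p under 0.05. The lowest unadjusted p was 0.0760, for MGST2 at a log2 fold change of 0.78 (SE 0.44, edgeR adjusted p = 1.00).

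The DMSO cultures differed most at GSTP1 and GSTK1, the shortest members, while the order of the others did not follow length. GSTP1, of 3059 bp, was 0.623 times as high in DMSO culture 2 as in culture 1 and GSTK1, of 5701 bp, was 0.723 times as high, whereas GSTO1 and GSTO2 were 1.06 and 1.02 times as high. Over 884 genes of 300 to 5000 bp the median log2 ratio of DMSO culture 2 to culture 1 was -0.36, and over 1141 genes above 100000 bp it was 0.11. GSTM3, of 7107 bp, was 0.956 times as high and GSTZ1, of 10711 bp, 0.967 times. The longest member, MGST2, of 74978 bp, was 0.772 times as high, MGST3, of 25263 bp, 0.811 times and GSTA4, of 17433 bp, 1.27 times on 9 and 20 counts. Of all genes above 0.5 RPKM, 16.3% were lower and 2.84% higher by at least 1.4-fold in culture 2, as GSTP1 was lower. The part of gene length in the GSTP1 and GSTK1 values was not tested.

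**Figure D4:**
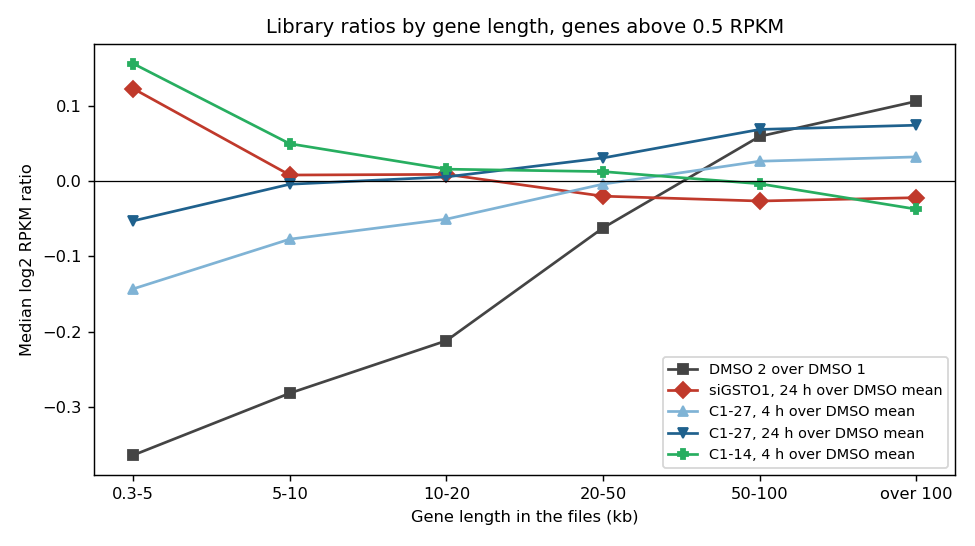
Median log2 RPKM ratio by gene length for genes above 0.5 RPKM, for DMSO culture 2 over culture 1 and for each treatment over the DMSO mean. The DMSO ratio runs from -0.36 in the shortest class to 0.11 in the longest, and C1-14 is at 0.16 in the shortest, the class that holds GSTP1.

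The genes whose levels over the 6 libraries were most like GSTO1 were MASTL, GTF2A1, SASS6, CSTF1 and LATS1. Pearson's r of log2 RPKM over the 6 libraries was 0.999 for MASTL and 0.985 for LATS1, among 9693 genes with at least 100 counts in every library. The order describes these 6 libraries only, since a low siGSTO1 value is part of what the measure selects. MASTL, a mitotic kinase, had 1.85 and 1.91 RPKM in DMSO and 1.65 with siGSTO1. GTF2A1, a subunit of the general transcription factor TFIIA, had 0.883 and 0.984 RPKM in DMSO and 0.564 with siGSTO1 (edgeR log2 fold change -0.84, SE 0.28, adjusted p = 0.0639). Among the members r with GSTO1 was 0.913 for MGST1, 0.412 for GSTO2 and -0.905 for GSTM3, above 98.0%, 71.7% and 1.88% of the genes searched. It was -0.179 for GSTA4, -0.305 for GSTP1, -0.355 for GSTZ1, -0.510 for MGST3, -0.692 for MGST2 and -0.697 for GSTK1.

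Related genes were read from lists made by function. Of 12 other cytosolic transferases, 11 had values, and only GSTM2 and GSTM4 had enough counts to test, neither being called in any treatment. GSTA2, GSTM1, GSTM5 and GSTT1 had 0 counts in all 6 libraries, which allows up to 3 counts in each. Mu-class genes are closely similar in sequence, so GSTM2, GSTM4 and GSTM3 may share reads. Of the 3 other MAPEG genes only PTGES, a prostaglandin E synthase, was tested, and it was not called.

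Of 14 proteins that share the transferase fold, 10 were tested and 2 were called with siGSTO1, both higher, where 3% of all genes were called higher and 1.16% lower. CLIC4, a chloride intracellular channel protein, had 0.428 and 0.714 RPKM in DMSO and 1.12 with siGSTO1 (edgeR log2 fold change 0.84, SE 0.24, adjusted p = 0.0153). CLIC5, of the same family, had 6 and 19 counts in DMSO and 56 with siGSTO1 (edgeR log2 fold change 2.38, SE 0.72, adjusted p = 0.0271). GDAP1, a mitochondrial outer membrane protein, was at 1.19 and 1.35 RPKM in DMSO and 2.54 with siGSTO1 but did not pass (edgeR adjusted p = 0.0603). CLIC5 lay far below the level filter of 0.5 RPKM, at 0.00141 and 0.00256 RPKM in DMSO and 0.0117 with siGSTO1. The list's median log2 fold change was -0.02, beside 0.02 over all genes.

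Of 18 other glutathione-dependent enzymes, 15 were tested and none was called in any treatment, where 3% of all genes were called higher and 1.16% lower with siGSTO1 and at most 0.159% in either direction with a compound. GSR, which regenerates reduced glutathione, had 2.68 and 2.17 RPKM in DMSO, 2.84 with siGSTO1, 3.67 and 4.03 with C1-27 at 4 h and 24 h, and 2.42 with C1-14. Both C1-27 cultures lay above every other library, at 1.52 and 1.66 times the DMSO mean, with unadjusted p of 0.00922 and 0.00469 and edgeR adjusted p of 1.00 and 0.487. GPX1, a selenium-dependent peroxidase, was at 3.85 RPKM with C1-14 against 2.06 and 1.70 in DMSO (edgeR log2 fold change 1.06, SE 0.51, adjusted p = 1.00). GPX4, which reduces lipid peroxides, was at 1.71 RPKM with C1-14 against 1.12 and 0.636 (edgeR log2 fold change 1.00, SE 0.51). GPX1 and GPX4, of 1183 and 2852 bp, belong to the length class of 300 to 5000 bp. Of 897 genes of that class, 21.7% were higher and 4.35% lower by at least 1.4-fold with C1-14. The part of gene length in the GPX1 and GPX4 values was not tested. GLRX, a glutaredoxin, had 34 and 32 counts in DMSO, 69 with siGSTO1 and 94 with C1-27 at 24 h (edgeR adjusted p = 0.351 and 1.00), and GGT6, a gamma-glutamyltransferase gene, had 23 to 41 counts per library.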

How the data were processed

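Nascent RNA of 6 HCT116 libraries was analysed from the processed files. The submitters' processing notes name CASAVA 1.8.2, Bowtie 0.12.8, TopHat 1.4.1, bedtools 2.16.2 and build hg19. Per gene and strand the authors deposited an expected count of reads over exons and introns, not normalized and often not whole. They also deposited a signal, the coverage per bp of the gene, which was not tested, and an RPKM value per mapped reads of the library. Fold changes were the treated RPKM over the DMSO mean, with nothing added to either. A gene passed the level filter when the mean of treated and DMSO RPKM was above 0.5. Counting intervals used the Clopper-Pearson method at 95% and cover counting error only.

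Rounded counts of 14431 genes (longer than 300 bp, 10 or more counts in 2 or more libraries) were fitted in 5 groups with edgeR 4.0.16 in R 4.3.3 (TMM, estimateDisp, quasi-likelihood test, Benjamini-Hochberg adjustment over all genes). Standard errors came from the log2 fold change and its F statistic. Only the DMSO pair leaves a residual degree of freedom (1), so each single treated culture is assumed to vary as DMSO did. The median total degrees of freedom per gene was 14431, equal to the number of genes tested, so the spread was pooled over genes. The edgeR standard errors, intervals and p-values rest on this pooled spread, treated as known, rather than on a gene's own DMSO difference. DESeq2 1.42.0 was an alternative. The fit was tested on simulated data for siGSTO1 against DMSO, with 50 genes planted at each fold. It called 1 of them at 1.4-fold, 8 at 2-fold and 46 at 4-fold. Not being called therefore says little about changes of 2-fold or less. The rest used pandas 2.3.3, scipy 1.17.1, numpy 2.4.6 and, for plots, matplotlib 3.10.9 under Python 3.11.15. Genes named beyond the family were those called in any comparison with DMSO, the 3 largest log2 fold changes per comparison over the lists, the 5 genes most like GSTO1 and the neighbours of the locus. The members and lists were chosen with earlier results of these data known. All comparisons with DMSO share the same control libraries. Promoters came from RefSeq (GRCh38.p14), and 9 of 10 members matched. Rows of ambiguous strand were left out.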

Additional observations from a re-analysis of the deposited data

How the results depend on the processing

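No paired analysis was possible because only the DMSO libraries carry replicate numbers and each treatment has 1 library. With both DMSO libraries kept, over the scaling, filter, dispersion, DESeq2 and comparison-only settings, 0 of 320 log2 fold changes of the 10 members against DMSO changed sign and 0 had an adjusted p under 0.05, the lowest being 0.114. With 1 DMSO library left out, 7 of 80 values changed sign, the largest of these being 0.24 in size with both. Without DMSO culture 2 these were GSTP1 with siGSTO1 (0.24 to -0.03) and C1-27 at 24 h (0.04 to -0.24) and GSTK1 with C1-14 (0.04 to -0.14). Without culture 1 they were GSTK1 with C1-27 at 24 h (-0.11 to 0.11), MGST3 with C1-27 at 4 h (-0.05 to 0.08), and GSTO2 with C1-27 at 4 h (0.04 to -0.01) and C1-14 (0.01 to -0.03). Over the same left-out libraries GSTO1 with siGSTO1 ran from -0.60 to -0.44 on the log2 scale and from 0.726 to 0.770 as an RPKM fold, and with RPKM rescaled by TMM factors the fold was 0.691. Members past the level filter and 1.4-fold higher with siGSTO1 then numbered 0 to 3, and 0 with a pseudocount of 0.1 RPKM or TMM rescaling, which placed 1 (GSTO1) 1.4-fold lower. Leaving out a DMSO library gave 0 to 2 members lower with C1-27 at 4 h, 0 to 1 higher at 24 h and 0 to 1 higher with C1-14. Without the level filter 5 members were higher with siGSTO1, 1 higher and 2 lower with C1-27 at 4 h, 1 higher at 24 h, and 2 higher and 1 lower with C1-14.

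Over all genes, the DESeq2 Wald test called 131 higher and 82 lower with siGSTO1 (433 and 168 by edgeR), 0 higher with C1-27 at 4 h (2), 10 higher and 8 lower at 24 h (23 and 17), and 2 higher and 0 lower with C1-14 (16 and 1). It called 19 higher and 3 lower for siGSTO1 against C1-27 at 24 h (109 and 34), and 2 higher and 3 lower for C1-27 at 24 h against 4 h (6 and 9). DESeq2 size factors in edgeR, or no count filter, gave 1 gene higher with C1-27 at 4 h. A robust quasi-likelihood fit, a robust dispersion estimate, a common dispersion, and a common dispersion with a robust fit were tried after seeing the data. With siGSTO1 these 4 called 425 to 462 genes higher and 167 to 171 lower. Both robust fits gave 0 lower with C1-14 and 5 lower for C1-27 at 24 h against 4 h, and the one with a common dispersion gave 3 higher there. The cause of these differences was not tested. Depth limits GSTA4, at 9 to 55 counts per library, and the single treated cultures limit every test.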
